A study of Mus musculus with 19 samples.

Results

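The genes described here encode the route by which a cell takes up long-chain fatty acids and burns them in mitochondria. The set is a fixed list of 37 mouse genes, and symbols were matched to the transcripts measured. All 37 were found among the 35598 genes with a matched transcript, and all 37 passed the filter on low counts that left 15123 genes for testing. RNA was measured in 19 libraries of primary myoblasts from mouse hind limb, the muscle precursor cells that fuse into myotubes. WT-labelled libraries numbered 3 at 24 h in growth medium (proliferating myoblasts), 3 at 48 h (differentiated) and 4 at 72 h (fused myotubes). Libraries labelled Glud1KO, for cells deficient in the glutamate dehydrogenase Glud1, numbered 3, 2 and 4 at the same stages and are called KO-labelled here. The labels name no Cre, promoter, allele, age or strain, and they do not say whether biological replicates came from separate animals, so every p-value measures the spread between these libraries, which may be technical.

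Fatty acids cross the plasma membrane with the help of the scavenger receptor CD36 and the FATP transporters, are carried in the cytosol by fatty acid binding proteins, and are trapped as acyl-CoA by acyl-CoA synthetases. The carnitine shuttle moves the acyl group into the mitochondrion, where the β-oxidation spiral shortens it by repeated dehydrogenation, hydration, dehydrogenation and thiolysis, and the electron-transfer flavoproteins pass the electrons to the respiratory chain. Malonyl-CoA, made by the acetyl-CoA carboxylases, inhibits the first carnitine step, and the nuclear receptors PPARα and PPARδ switch on many genes of the route in oxidative muscle.

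Promoter windows from RefSeq on build GRCm38.p6 (the 250 bases before each annotated start) matched 32 of the 37 members; Crat, Acaa2, Cpt1b, Decr1 and Lpl had no entry. Some members have more than 1 annotated start, which gave 37 windows. The letters AGGTCA, the half-site that PPARs and related nuclear receptors bind as repeats, stood on either strand in 7 of these windows and in 14% of all 32851 windows. The full repeat, meaning 2 copies of AGGTCA in the same direction with any 1 base between them, was in 0 of the 37 windows and in 0.0335% of all. The letters CAGCTG, an E-box of the type MyoD binds and the same on both strands, were in 9 of the 37 windows and in 13% of all. Windows with AGGTCA belonged to Acadm, Acadvl, Acsl6, Cd36, Cpt1a, Echs1 and Ucp3. Those of Acadm, Acadvl, Cd36 and Ucp3 are printed because their windows touch no annotated exon (for Ucp3 after leaving out 1 base). Those of Acsl6, Cpt1a and Echs1 were left out for overlap with an annotated exon. The course of expression played no part in this choice. The stretch between Hadha and Hadhb, which encode both subunits of the mitochondrial trifunctional protein, is printed because the 2 genes start back to back and moved in parallel. A match of letters is a description of the sequence and not a site of binding.

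In these sequences, written 5′ to 3′ on the gene's own strand, capitals mark AGGTCA or its reverse complement TGACCT. The Acadm window is chr3:153944644-153944893 on the minus strand, and Acadvl has chr11:70015429-70015678 on the minus strand; neither lies within an annotated gene. The Cd36 window, chr5:17835897-17836146 on the minus strand, lies in an intron of Cd36, since the gene has earlier annotated starts. The Ucp3 window, chr7:100472741-100472989 on the plus strand, lies inside the predicted gene Gm10603 but outside its exons. The 85 bases between Hadha and Hadhb are chr5:30155163-30155247, given on the plus strand (the strand of Hadhb), and hold neither AGGTCA nor CAGCTG; 69.4% of these bases are G or C, against a median of 52.4% over all windows.
Acadm: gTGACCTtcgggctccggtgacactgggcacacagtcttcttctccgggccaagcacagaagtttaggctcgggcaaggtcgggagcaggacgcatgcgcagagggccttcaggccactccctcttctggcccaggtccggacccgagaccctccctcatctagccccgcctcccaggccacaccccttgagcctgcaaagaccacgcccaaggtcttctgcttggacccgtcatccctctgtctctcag
Acadvl: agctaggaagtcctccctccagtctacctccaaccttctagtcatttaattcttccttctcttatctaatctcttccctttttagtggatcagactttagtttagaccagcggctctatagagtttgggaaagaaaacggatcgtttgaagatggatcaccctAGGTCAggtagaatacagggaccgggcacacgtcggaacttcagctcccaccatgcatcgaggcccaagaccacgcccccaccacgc
Cd36: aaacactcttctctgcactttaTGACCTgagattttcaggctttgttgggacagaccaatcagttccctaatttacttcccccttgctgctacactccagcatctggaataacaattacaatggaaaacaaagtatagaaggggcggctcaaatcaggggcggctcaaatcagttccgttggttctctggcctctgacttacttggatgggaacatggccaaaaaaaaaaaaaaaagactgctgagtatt
Ucp3: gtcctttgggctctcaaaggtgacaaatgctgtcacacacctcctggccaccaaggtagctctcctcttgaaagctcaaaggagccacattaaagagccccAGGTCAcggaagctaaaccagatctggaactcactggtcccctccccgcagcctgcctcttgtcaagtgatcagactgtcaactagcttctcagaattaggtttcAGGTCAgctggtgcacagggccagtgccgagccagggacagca
Hadha-Hadhb: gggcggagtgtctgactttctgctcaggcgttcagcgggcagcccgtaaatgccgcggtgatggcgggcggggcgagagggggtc

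Libraries held 16168131 to 30742634 estimated counts. Counts of the targeted gene Glud1 did not separate the genotype labels. Its mean was 189 CPM (counts relative to library size after TMM scaling) in WT and 187 in KO-labelled myoblasts, 106 and 99.8 at 48 h, and 135 and 133 at 72 h, with adjusted p of 0.849, 0.193 and 0.748 in edgeR's quasi-likelihood test. TPM, which the authors' quantifier scales by effective transcript length, was lower in KO-labelled libraries, at 169 and 139, 83.8 and 61.7, and 102 and 79.4, without overlap at any stage. The names given to the deposited tables carry KO for either genotype, plus a T where the label reads Glud1KO, so every direction drawn between genotypes rests on the labels. Summed CPM of 6 muscle genes (Des, Myod1, Pax7, Myog, Ckm and Acta1) lay between 1964 and 2197 in the WT-labelled myoblasts and between 1678 and 1742 in the KO-labelled ones, and the sum overlapped between the labels at 48 h and 72 h. Within the list, Pax7 and Myod1, markers of muscle precursors, were lower in KO-labelled libraries at 48 h (10.6 and 5.63 CPM, and 814 and 657 CPM; adjusted p of 1.01e-05 and 0.000155). Of 6 adipocyte markers (Adipoq, Plin1, Cidec, Lep, Retn, Cfd) 0 reached 1 CPM in any group, and they summed to at most 0.176 CPM in a library. Endothelial markers also had 0 of 6 at 1 CPM, and fibro-adipogenic markers summed to at most 4.45.

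Most of the pathway rose over differentiation in WT-labelled libraries. From 24 h to 48 h 27 members rose and 8 fell at an edgeR adjusted p under 0.05, where 42.4% of all genes tested rose and 42.6% fell. From 48 h to 72 h 30 rose and 4 fell, against 37.4% and 37.7% of all genes, and over the whole course 31 rose and 4 fell, against 42.2% and 43.4%. With scaling by library totals alone the members split 22 to 10, 30 to 5 and 30 to 6 in these comparisons, and 40.4%, 44.9% and 39.5% of all genes called rose in place of 49.9%, 49.7% and 49.3%. The median log2 fold change of the 37 members was 0.73, 0.85 and 1.57 in these 3 comparisons, and that of all genes tested was 0.019, -0.011 and -0.013. The summed muscle markers moved along the same course, from between 1964 and 2197 CPM at 24 h to between 17766 and 19806 at 48 h and between 17622 and 19947 at 72 h. The 6 macrophage markers went from between 1.51 and 1.9 CPM to between 15.5 and 18.5 and then between 8.49 and 10.3, of which Itgam made up 0.22, 15.8 and 9.07 on average. Their part in the members' course was not tested. Bulk RNA cannot tell fewer cells of a kind from less RNA per cell.

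**Figure D1:**
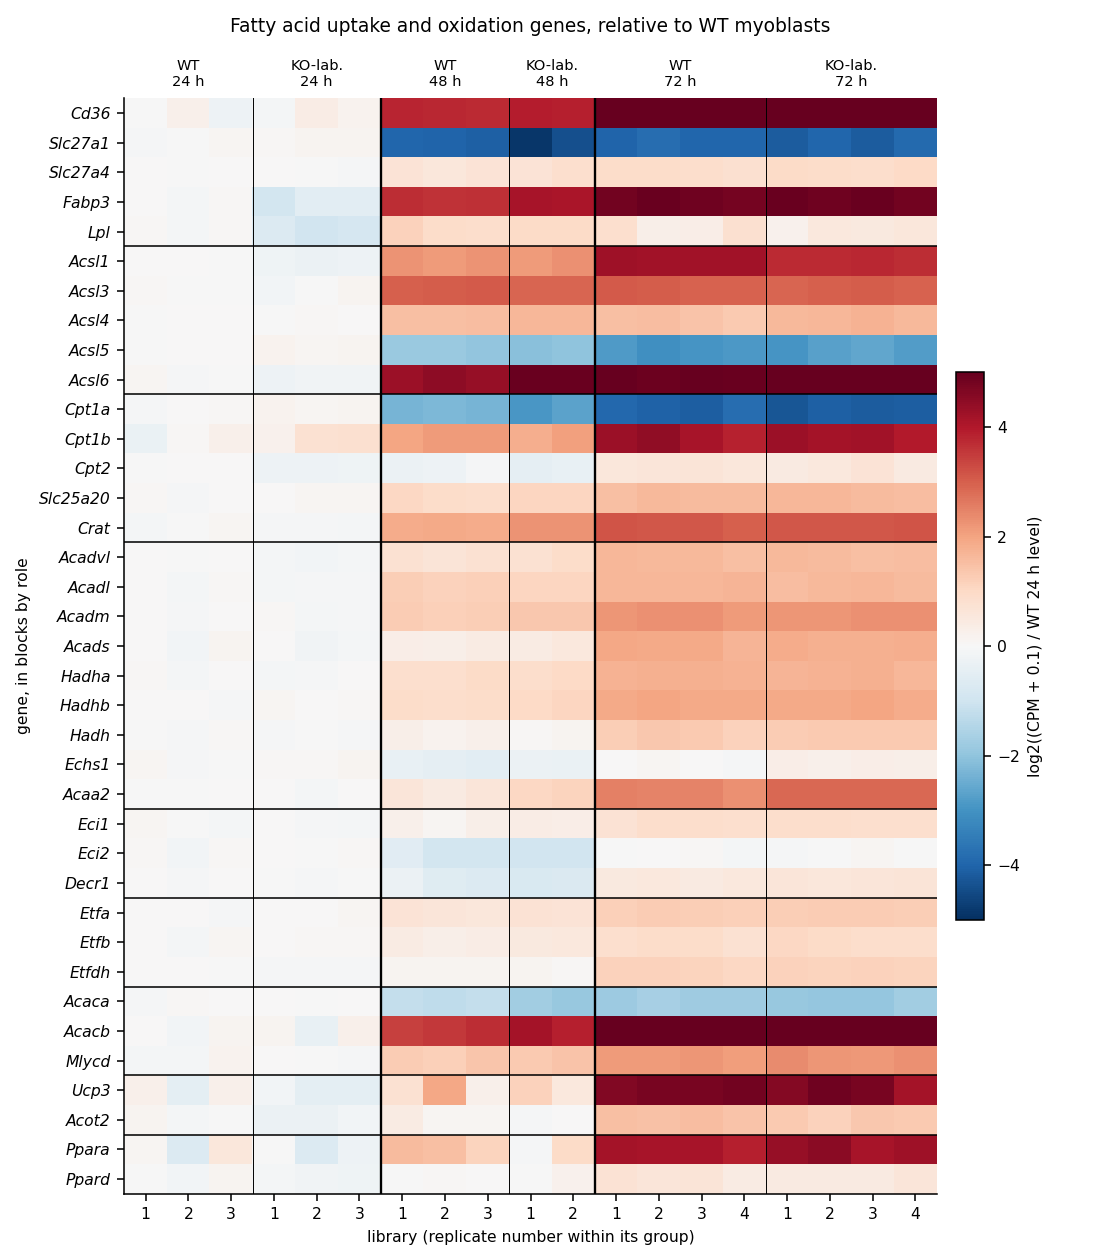
Level of each of the 37 members (rows, in blocks by role) in each of the 19 libraries (columns), as log2 of CPM plus 0.1 relative to the mean of the WT-labelled myoblasts; colours saturate at 5 log2 units in either direction. Most blocks turn red at 48 h and more so at 72 h under both labels, while Slc27a1, Acsl5, Cpt1a and Acaca turn blue.

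By course, 24 members rose at both steps, and the other 13 did not; several of the smaller changes at the first step depend on the processing, as given with each gene. Cpt1a, Acaca and Acsl5 fell at both steps, the gene total of Slc27a1 fell by 48 h and was not called at the second step, and Acsl3 and Acsl4 rose by 48 h only. Cpt2, Decr1, Echs1 and Eci2 fell and then rose, Lpl rose and then fell, and Acot2 and Ppard passed the test only at the step to 72 h. KO-labelled libraries had 35 members called from 24 h to 48 h (27 higher, 8 lower), where 83.7% of all genes were called, 41.3% higher and 42.5% lower; with library totals alone 38.8% in place of 49.3% of those called were higher. From 48 h to 72 h 34 were called (31 higher, 3 lower), against 70.2%, 35.8% and 34.4%, and over the whole course 36 (32 higher, 4 lower), against 87.2%, 42.7% and 44.5%. Under library totals alone, 50.1% in place of 51.1% of all genes called were higher from 48 h to 72 h. Over the whole course it was 39.7% in place of 48.9%. Members called under both labels numbered 34, 33 and 35 in the 3 comparisons, and 0 of them went in opposite directions. Of all genes, 85%, 75.1% and 85.5% were called in the WT comparisons. The count under both labels was not made for all genes, so this agreement is not shown to be particular to the members. The fall of Cpt2 from 24 h to 48 h in KO-labelled libraries (adjusted p = 0.0419), counted here, was lost in 11 of 14 alternatives. On the TPM scale, which is per length and so allows genes to be added, the 37 members summed to 1389 ± 15.2 (SD, n = 3), 2236 ± 23.7 (n = 3) and 3506 ± 133 (n = 4) in WT-labelled libraries, and to 1374 ± 38.8 (n = 3), 2161 ± 28.5 (n = 2) and 3514 ± 63 (n = 4) in KO-labelled ones. The 9 enzymes of the spiral held the largest part of it, 594, 945 and 1622 TPM in WT-labelled libraries. Acadl, the long-chain acyl-CoA dehydrogenase of rodent tissues, had the highest mean TPM of the set in WT-labelled libraries at every stage (133 ± 8.63, 266 ± 12.2 and 352 ± 11.8), ahead of Hadha, Hadhb and Etfa at 72 h.

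Among the uptake genes, 4 of 5 rose over the WT course and 1 fell, beside 42.2% and 43.4% of all genes. The rise of Lpl over the whole course (log2 0.63) was not called with library totals alone (0.31, edgeR adjusted p = 0.0507). Cd36, the fatty acid translocase, had 1.83, 2.2 and 1.54 CPM in WT-labelled myoblasts, 26.8, 26 and 25.9 at 48 h and 112, 115, 105 and 124 at 72 h. Each stage lay wholly above the one before, a 14.3-fold rise and then a 4.35-fold rise (log2 3.84 ± 0.11 and 2.12 ± 0.06 SE, adjusted p of 8.03e-22 and 2.53e-21). Fabp3, the heart and muscle fatty acid binding protein, rose 12.8-fold and then 2.29-fold. Lpl, the lipoprotein lipase that frees fatty acids from circulating triglyceride, stayed low, with a mean of 5.07 CPM at 48 h and 3.83 at 72 h; its fall of 0.37 on the log2 scale (adjusted p = 0.015) was not called in 5 of 16 alternatives: without WT replicate 1 of 48 h, without WT replicate 2 or 3 of 72 h, with the effective-length offset (0.0868) and with length and GC trends removed (0.081).

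The 2 FATP transporters went opposite ways. Slc27a1 (FATP1) had 89.6, 89.9 and 97.6 CPM in WT-labelled myoblasts, 5.74, 5.66 and 5.32 at 48 h and 5.62, 6.41, 5.74 and 5.89 at 72 h. It fell 16.6-fold by 48 h (log2 -4.06 ± 0.068 SE, adjusted p = 2.70e-27), and the last 2 stages overlapped. Slc27a4 (FATP4) rose 1.57-fold and 1.16-fold. Its part of the summed TPM of both transporters went from 15.4% ± 0.684 (SD, n = 3) to 82.2% ± 0.992 (n = 3) and 82.8% ± 0.606 (n = 4). Most of the Slc27a1 signal in myoblasts was assigned to transcripts annotated as retained introns, 1 of which held 48.8% ± 7.49, while protein-coding transcripts held 27.9% ± 2.77 (SD, n = 3) of its counts in WT-labelled myoblasts. Protein-coding Slc27a1 alone was 22.9, 24.6 and 30.2 CPM in those libraries and 1.86, 0.941 and 2.48 at 48 h, so this fraction was lower at 48 h too, without overlap. At 72 h protein-coding Slc27a1 was 3.32, 5.12, 2.6 and 4.74 CPM, all above the 48 h libraries and below the myoblasts, which the gene total does not show; its part of the gene's counts was 31.9% ± 15.1 (SD, n = 3) at 48 h and 66.1% ± 17.1 (n = 4) at 72 h.

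**Figure D2:**
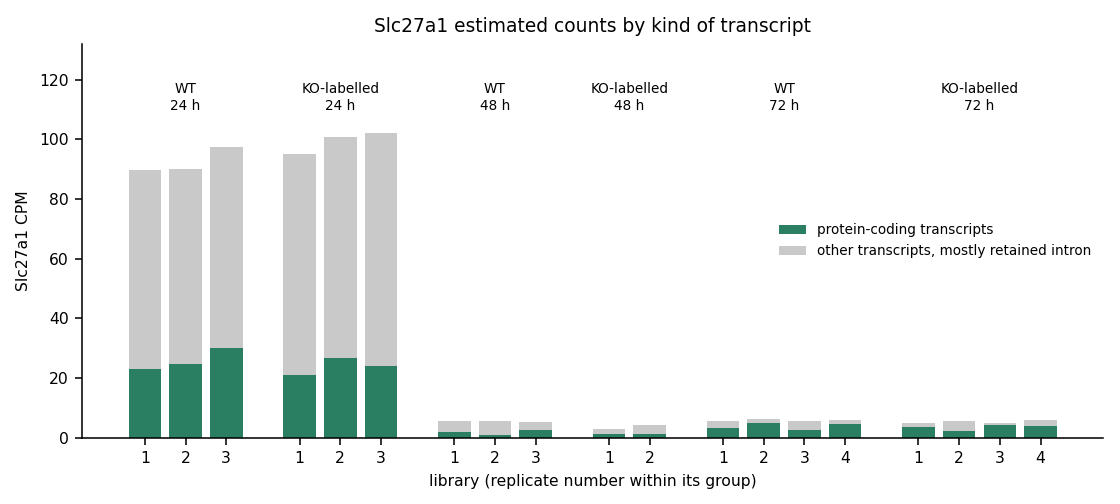
Slc27a1 CPM in each library (bars, grouped by label and time), divided into protein-coding transcripts (green) and other transcripts (grey). The bars reach 89.6 to 102 CPM at 24 h and at most 6.41 CPM later, and most of each 24 h bar is grey.

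The acyl-CoA synthetases, which activate long-chain fatty acids, changed in makeup. Acsl6 had 3.13, 2.85 and 2.87 CPM in WT-labelled myoblasts, 58.3, 66.7 and 61.5 at 48 h and 98.3, 91.1, 95.2 and 93.7 at 72 h. Its rise by 48 h was 21-fold (log2 4.39 ± 0.071 SE, adjusted p = 1.15e-27), the largest of the 37 at that step. Acsl5 ran the other way, at 85, 85.4 and 85.6, then 23.8, 23.8 and 21.4, then 11.8, 10, 11 and 11.5 CPM. Its falls of 3.72-fold and 2.05-fold (adjusted p of 5.76e-22 and 1.40e-13) also left no overlap between stages. Acsl1, the main synthetase of oxidative muscle, rose 4.65-fold and then 3.98-fold, while Acsl3 and Acsl4 rose 8.19-fold and 2.85-fold by 48 h. Acsl5 went from 27.2% ± 2.06 (SD, n = 3) to 0.977% ± 0.28 (n = 4) of the summed TPM of the 5 genes, and Acsl1 from 4.98% ± 0.115 to 21.1% ± 0.376. Acsl3 shares 244 exon bases with Utp14b on the same strand, and Acsl5 shares 404 with Zdhhc6 on the opposite strand, so their counts carry some uncertainty.

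In the carnitine shuttle, the 2 isoforms of the entry enzyme went opposite ways. Cpt1a, the carnitine palmitoyltransferase 1 of liver and many other tissues, had 79.1, 82.7 and 84.6 CPM in WT-labelled myoblasts, 16.1, 17.3 and 16.2 at 48 h and 5.3, 4.82, 4.63 and 5.69 at 72 h. It fell 4.97-fold and then 3.19-fold (log2 -2.31 ± 0.053 and -1.67 ± 0.074 SE, adjusted p of 2.19e-24 and 3.76e-17). Cpt1b, the muscle isoform, had 0.633, 0.864 and 1 CPM, then 3.51, 3.92 and 3.87, then 17.6, 19.6, 15.7 and 13, with no overlap between stages. Its rises of 4.51-fold and 4.32-fold had adjusted p of 6.90e-10 and 5.20e-14. On the TPM scale Cpt1b went from 2.15% ± 0.419 (SD, n = 3) of the 2 isoforms to 28.2% ± 3.35 (n = 3) and 80.4% ± 8.47 (n = 4); KO-labelled libraries gave 2.57% ± 0.351 (n = 3), 29.8% ± 2.32 (n = 2) and 81% ± 4.93 (n = 4). Cpt1b shares 2744 exon bases with the readthrough gene Gm44502 on the same strand, which held 0 to 1.5 CPM on average in any group. Slc25a20, the carrier that exchanges acylcarnitine across the inner membrane, rose 1.92-fold and 1.55-fold, and Crat, the carnitine acetyltransferase, 3.66-fold and 2.34-fold. Cpt2, which returns the acyl group to CoA inside the mitochondrion, fell 1.14-fold by 48 h and rose 1.72-fold by 72 h. The fall of Cpt2 (adjusted p = 0.00668) was not called in 3 of 15 alternatives, with the effective-length offset (0.405), with only genes of a mean of at least 1 CPM (0.0525) and without WT replicate 1 of 48 h (0.0623).

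**Figure D3:**
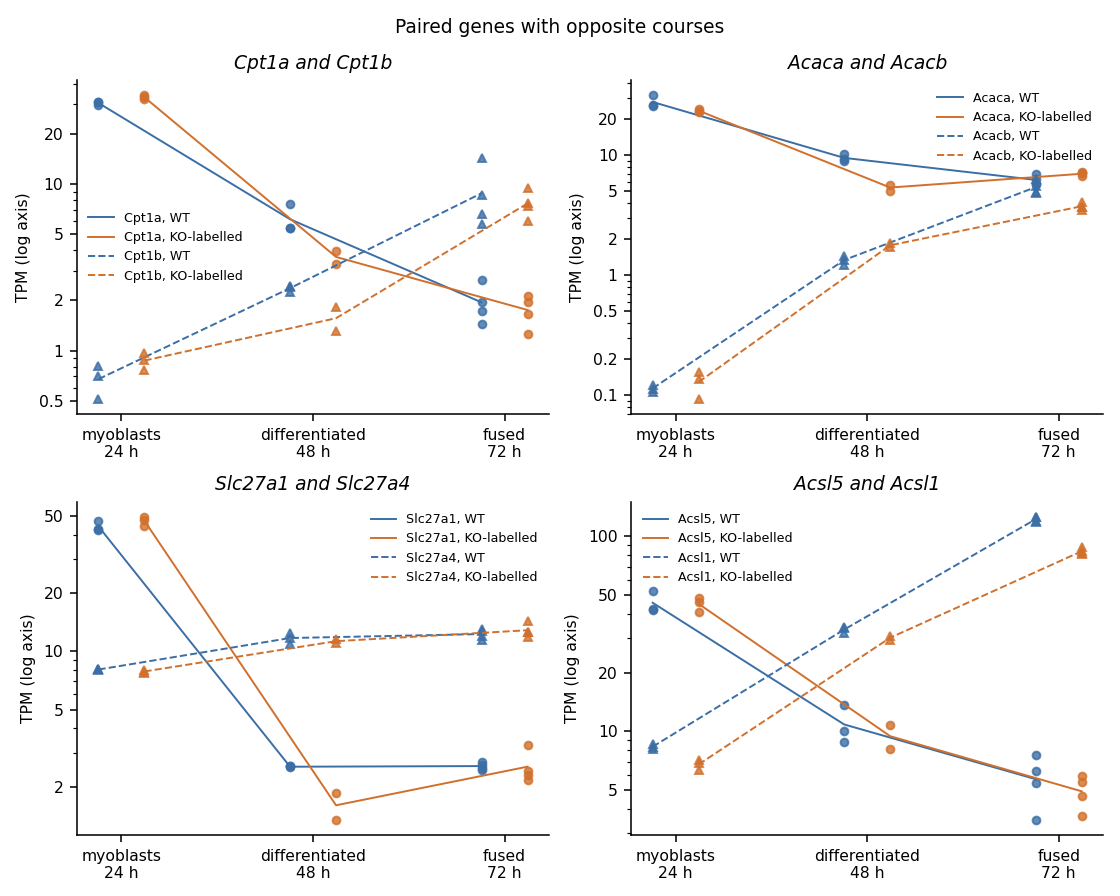
TPM (log axis) of 4 pairs of members at the 3 stages, with a point for each library and lines through group means (solid for the first gene, dashed for the second; blue WT, orange KO-labelled). In each pair the first gene falls and the second rises between 24 h and 72 h, so that Cpt1b passes Cpt1a and Acsl1 passes Acsl5; Acacb approaches Acaca.

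Most genes of the spiral rose together, with Echs1 as the exception at the first step in the main fit. At 48 h 8 of its 9 genes were above myoblasts and Echs1 was below. From 48 h to 72 h all 9 rose, by 1.4-fold (Acadl and Echs1) to 3.68-fold (Acaa2). Of all genes tested, 42.4% and 37.4% rose at these steps. With scaling by library totals alone, Hadh (log2 -0.022) and Acads (0.096) were not called at the first step. The acyl-CoA dehydrogenases for very long, medium and short chains, Acadvl, Acadm and Acads, ended 3.04-fold, 4.66-fold and 3.61-fold above myoblasts, and Acadl 3.19-fold. Acads, the short-chain enzyme, made most of its rise late, 1.27-fold by 48 h and 2.84-fold from there to 72 h. Acaa2, a mitochondrial 3-ketoacyl-CoA thiolase that performs the last reaction, went from 22.3, 21.9 and 22.8 CPM to 34, 30.3 and 34.1 and then to 128, 125, 124 and 108. Its 2 steps were 1.47-fold and 3.68-fold (adjusted p of 8.64e-09 and 2.86e-21). Acadvl shares 1151 exon bases with Dvl2 on the opposite strand, and the annotation calls the Hadha transcript that holds most counts (77.5% in WT-labelled myoblasts) a processed transcript.

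Hadha and Hadhb, the back-to-back genes of the printed 85-base stretch, rose by nearly the same factors. Hadha had 106, 96.5 and 105 CPM in WT-labelled myoblasts, 181, 182 and 201 at 48 h and 344, 353, 355 and 342 at 72 h. Hadhb had 69.7, 69.3 and 66.6, then 128, 127 and 130.0, then 257, 268, 252 and 253. The 2 steps were 1.84-fold and 1.85-fold for Hadha and 1.87-fold and 2.01-fold for Hadhb. Hadh, the dehydrogenase for medium and short chains, rose 1.17-fold and 2.04-fold. Echs1, the short-chain enoyl-CoA hydratase, fell 1.38-fold and rose 1.4-fold, which brought it back to 39.1 CPM from 38.4 (adjusted p = 0.688 for the whole course).

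Enzymes that handle unsaturated chains dipped at 48 h, apart from Eci1. Eci2, a peroxisomal and mitochondrial enoyl-CoA isomerase, fell 1.74-fold and rose 1.71-fold, and Decr1, the dienoyl-CoA reductase, fell 1.44-fold and rose 2.05-fold. Eci1 rose 1.17-fold and 1.53-fold. Electron transfer rose at both steps in 3 of 3 genes, where 42.4% and 37.4% of all genes rose. Etfa and Etfb, the subunits of the flavoprotein, ended 2.33-fold and 1.8-fold above myoblasts, and Etfdh, which passes the electrons to ubiquinone, 2.18-fold. When libraries were scaled by their totals alone, the median of all genes from 24 h to 48 h moved to -0.23, and the small rises of Eci1, Hadh and Etfdh at that step became changes of -0.029, -0.022 and -0.12 (log2), so their direction depends on the scaling. Under that scaling Etfb and Acads, at 0.10 and 0.096, were not called at the step either (adjusted p of 0.0807 and 0.153), and of the electron-transfer genes Etfa alone stayed called higher.

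Of the acetyl-CoA carboxylases, which make malonyl-CoA, Acaca, the cytosolic form of fat synthesis, fell and Acacb, the form held at the mitochondrial surface, rose. Acaca had 101, 107 and 104 CPM in WT-labelled myoblasts, 45.3, 42.8 and 45.7 at 48 h and 29.2, 32.4, 30.3 and 30.5 at 72 h. Acacb had 0.668, 0.605 and 0.735, then 8.02, 8.79 and 9.89, then 42, 36.5, 40.5 and 36.4. Acaca fell 2.33-fold and 1.46-fold (adjusted p of 1.98e-19 and 8.84e-11), and Acacb rose 13.2-fold and 4.33-fold (adjusted p of 4.55e-18 and 8.07e-19), with no overlap between stages for either. Acacb thus went from 0.409% ± 0.0533 (SD, n = 3) of their summed TPM to 12.3% ± 0.375 (n = 3) and 46.5% ± 4.93 (n = 4) in WT-labelled libraries. Mlycd, the decarboxylase that removes malonyl-CoA, rose 2.44-fold and 1.81-fold.

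Ucp3 and Ppara were close to absent before fusion. Ucp3, the uncoupling protein of skeletal muscle, had 4 counts over the 3 WT-labelled myoblast libraries, 15 at 48 h and 288 at 72 h, or 3.42 to 3.92 CPM in each library at 72 h. Scaled for depth, the 72 h level was 75.1 times that of myoblasts, with a 95% interval of 29 to 277 that covers counting error only. Ppara, the receptor that drives fatty acid oxidation genes, had 6, 23 and 199 counts, and its ratio of 72 h to 24 h was 34.6 (15.6 to 95.4). Both passed the edgeR test at each step, but Ucp3 at the first step (adjusted p = 0.019) was not called without WT replicate 2 of 24 h or of 48 h. With the effective-length offset neither was called at the first step (adjusted p of 0.116 for Ucp3 and 0.114 for Ppara). Ppard, the PPAR form most abundant in muscle, had 20.8, 19.3 and 22.9 CPM at 24 h, 20.6, 21.6 and 21.5 at 48 h and 35.1, 32, 32.7 and 27.8 at 72 h, a 1.5-fold rise at the second step. Acot2, a mitochondrial thioesterase that releases free fatty acid from acyl-CoA, rose 2.44-fold at that step, and summing it with its close copy Acot1 changed no call.

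Between genotype labels, differences were smaller and went in both directions. In myoblasts 1 member was higher and 4 were lower in KO-labelled libraries (edgeR adjusted p under 0.05), against 4.86% and 6.69% of all genes tested. At 48 h 7 were higher and 5 lower, against 11% and 14.1%, and at 72 h 5 were higher and 2 lower, against 6.32% and 6.72%. In either direction that is 13.5%, 32.4% and 18.9% of the members, beside 11.6%, 25.2% and 13% of all genes, so the members' shares lay near those of all genes. The median log2 difference of the members was -0.03, 0.083 and 0.0092, beside 0.014, -0.012 and -0.0063 for all genes, and 0 called members differed 2-fold or more. Of the 37, 21 were called at no stage, 8 at 1 stage, 8 at 2 stages and 0 at all 3. This tally was not made for all genes, so it is not shown to be particular to the members. With scaling by library totals alone, the split at 48 h was 5 higher and 9 lower members, and the share of higher genes among all genes called was 27% in place of 43.9% (54% with length and GC trends removed), so the balance of directions at 48 h depends on the scaling. At 24 h 0 members were higher and 4 lower with DESeq2's size factors, and 3 higher and 5 lower after removal of the trend with length and GC content; with the effective-length offset, the share of higher genes among all genes called was 19.2% in place of 42.1% (29.3% with DESeq2's size factors).

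**Figure D4:**
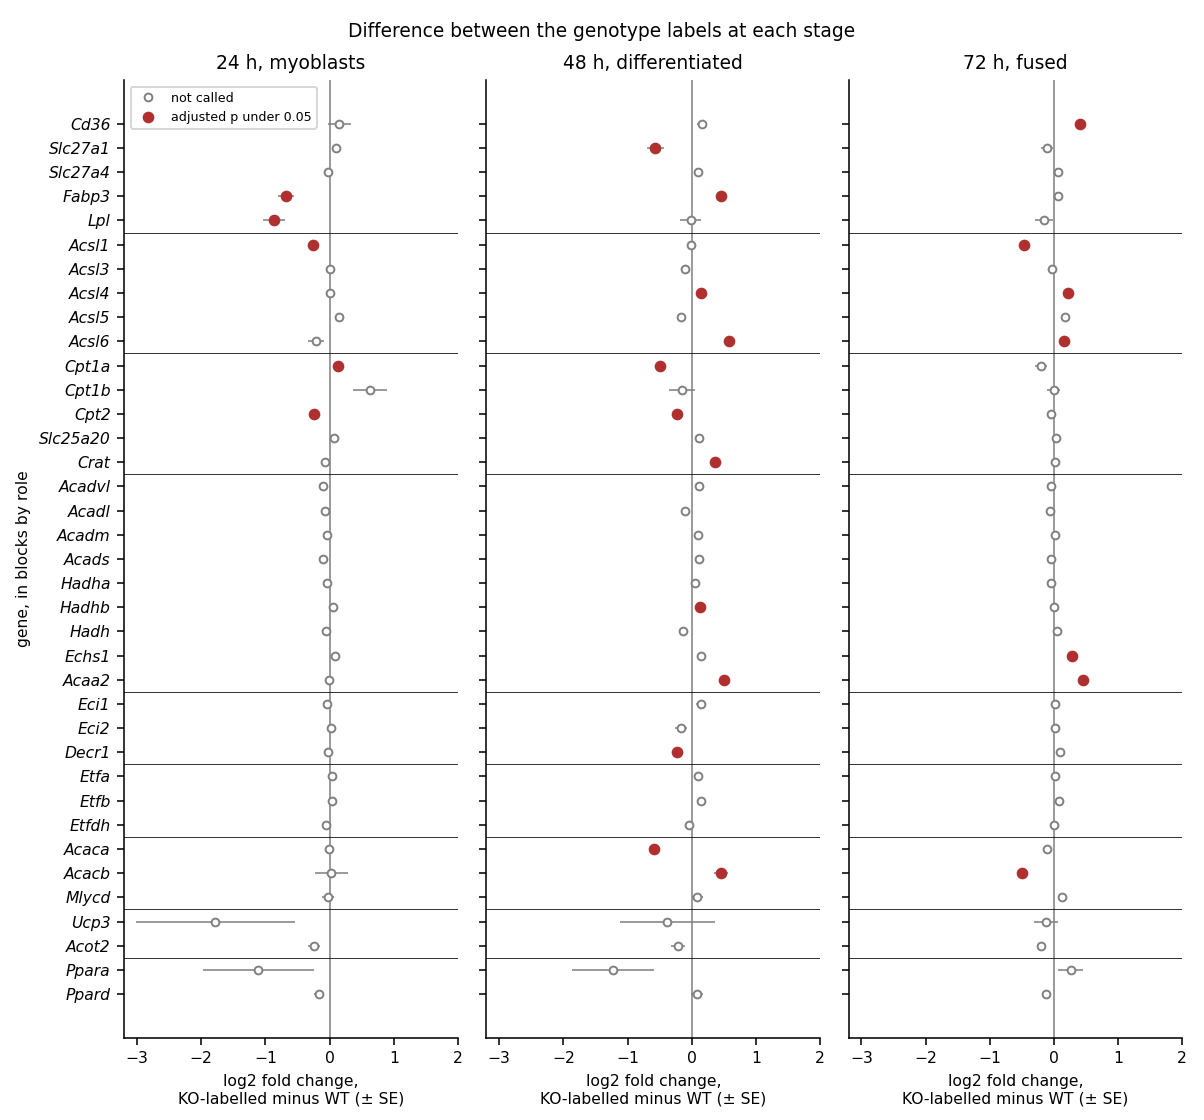
Log2 fold change, KO-labelled minus WT, of each member at the 3 stages, with bars of ± 1 SE; red points have an edgeR adjusted p under 0.05. Fabp3 and Lpl at 24 h, at -0.68 and -0.86, lie farthest from 0 among the red points, and the wide bars belong to Ucp3 and Ppara, which had few counts before 72 h.

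In myoblasts the called members were mostly lower under the KO label. Fabp3 had 3.3, 3.07 and 3.44 CPM in WT and 1.69, 2.26 and 2.26 in KO-labelled libraries, a fall of 0.68 ± 0.12 SE on the log2 scale (adjusted p = 0.000454). Lpl had 2.6, 2.33 and 2.61 against 1.52, 1.24 and 1.37 (log2 -0.86 ± 0.17 SE, adjusted p = 0.00104). In neither gene did the groups overlap, but both were scarce at this stage. Fabp3 shares 81 exon bases with Zcchc17 on the opposite strand, and 84.2% ± 11.8 of the Lpl counts in WT and 73.2% ± 3.94 in KO-labelled myoblasts (SD, n = 3 each) fell on its protein-coding transcript. Acsl1 had 17.1, 16.9 and 16.4 against 14.4, 13.6 and 14.1 CPM (log2 -0.26 ± 0.058 SE, adjusted p = 0.00368), and Cpt2 had 23.3, 23.9 and 24.2 against 19.9, 19.8 and 20.3 (log2 -0.25 ± 0.06 SE, adjusted p = 0.0065). Cpt2 was not called with the effective-length offset (adjusted p = 0.494, with 0.0011 to 0.494 over all alternatives). Cpt1a was the single member called higher, with 91.6, 87.1 and 90.8 against 79.1, 82.7 and 84.6 CPM (adjusted p = 0.0496); the call was lost in 12 of 15 alternatives, with adjusted p from 0.00712 to 0.694, among them the fits without any 1 of the 6 libraries. Of the 6 muscle markers, Des, Myog, Ckm and Acta1 were lower in the same KO-labelled libraries (log2 -0.33, -0.63, -0.81 and -0.78), whereas Pax7 and Myod1 were not called (0.014 and -0.044, adjusted p of 0.922 and 0.639). The part of these markers in the differences was not tested.

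At 48 h Acaca and Cpt1a were lower under the KO label, and Acsl6, Fabp3, Crat and Acaa2 were higher. Acsl6 had 58.3, 66.7 and 61.5 CPM in WT and 92.7 and 93.6 in KO-labelled libraries (log2 0.58 ± 0.05 SE, adjusted p = 1.44e-09). Acaca had 45.3, 42.8 and 45.7 against 31.5 and 27.9 (log2 -0.59 ± 0.06 SE, adjusted p = 3.10e-08). Fabp3, lower in KO-labelled myoblasts, was higher here, with 43.3, 41.1 and 42.1 against 58.9 and 57.3 (log2 0.46 ± 0.055 SE, adjusted p = 4.28e-07). The groups did not overlap in any of the 3. Crat had 120.3, 125 and 123 against 158 and 158 CPM (log2 0.36 ± 0.045 SE, adjusted p = 9.48e-07), and Acaa2 had 34, 30.3 and 34.1 against 45.8 and 47.8 (log2 0.51 ± 0.068 SE, adjusted p = 2.36e-06). Cpt1a had 16.1, 17.3 and 16.2 against 10.8 and 12.6 (log2 -0.50 ± 0.079 SE, adjusted p = 2.75e-05). These 6 genes were called in every alternative run.

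The other 6 calls at 48 h were less firm. Acacb (log2 0.46, adjusted p = 0.00187) and Slc27a1 (log2 -0.57, adjusted p = 0.00206) were not called without KO-labelled replicate 1, where they had 13.6 and 3.1 CPM against 11.2 and 4.35 in replicate 2; the log2 differences were then 0.32 and -0.35, with adjusted p of 0.108 and 0.151. Protein-coding Slc27a1 was 1.17 and 1.41 CPM in KO-labelled libraries, inside the WT range of 0.941 to 2.48, so a lower level is shown for the gene total only. Acsl4 and Hadhb were higher by 0.15 and 0.13, and Cpt2 and Decr1 were lower, at -0.23 each, and each of these 4 was lost in 5 or 6 of 14 alternatives. Over these, adjusted p ran from 0.0112 to 0.243 for Acsl4 and from 0.00351 to 0.819 for Hadhb. For Cpt2 it ran from 0.00495 to 0.236, and for Decr1 from 0.00385 to 0.252. The size moved as well: Decr1 was at -0.11 without WT replicate 1 and Cpt2 at -0.15 without WT replicate 3. Acsl4 was at 0.091 with library totals alone, and Hadhb at 0.076 with library totals alone and 0.029 with the effective-length offset. On the TPM scale Hadhb had 173, 159 and 153 in WT and 148 and 154 in KO-labelled libraries, which overlap. On the TPM scale Acacb made up 24.8% ± 0.535 (SD, n = 2) of the 2 carboxylases in KO-labelled libraries at 48 h, against 12.3% ± 0.375 (n = 3) in WT, and 34.9% ± 2.22 (n = 4) against 46.5% ± 4.93 (n = 4) at 72 h. A list of 6 macrophage markers summed to 15.5 to 18.5 CPM in WT and 24.3 to 28 in KO-labelled libraries at 48 h, of which Itgam made up 15.8 and 25.4 CPM on average; it was the single marker of the list above 1 CPM, and Fcgr1 was at 0 in every library of both groups. Pax7 and Myod1 were lower in the same KO-labelled libraries (values above). The part of these markers in the results at 48 h was not tested.

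Fused myotubes showed the clearest separation in Acsl1. It had 316, 309.6, 308 and 311 CPM in WT and 225, 224, 229 and 218 in KO-labelled libraries, a fall of 0.47 ± 0.033 SE on the log2 scale (adjusted p = 4.40e-11). Acaa2 had 128, 125, 124 and 108 against 166, 162, 166 and 165 (log2 0.45 ± 0.043 SE, adjusted p = 3.26e-08). Cd36 had 112, 115, 105 and 124 against 146, 147, 163 and 144 (log2 0.40 ± 0.047 SE, adjusted p = 1.07e-06). In all 3 genes the lowest library of the higher group lay above the highest of the other. Acacb was now lower under the KO label, with 42, 36.5, 40.5 and 36.4 against 27.4, 29.3, 26.7 and 26.6 CPM (log2 -0.50 ± 0.064 SE, adjusted p = 3.55e-06). Echs1 had 39.3, 40.8, 39.1 and 37.3 against 48.7, 46.2, 48 and 46.7 (log2 0.28 ± 0.044 SE, adjusted p = 7.16e-05), and Acsl4 had 477, 483, 447 and 415 against 514, 526, 562 and 519 (log2 0.22 ± 0.04 SE, adjusted p = 0.000381). Acsl6 was 1.11-fold higher (adjusted p = 0.0106), a call lost with the effective-length offset (0.52) and without KO-labelled replicate 3 (0.0559).

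**Figure D5:**
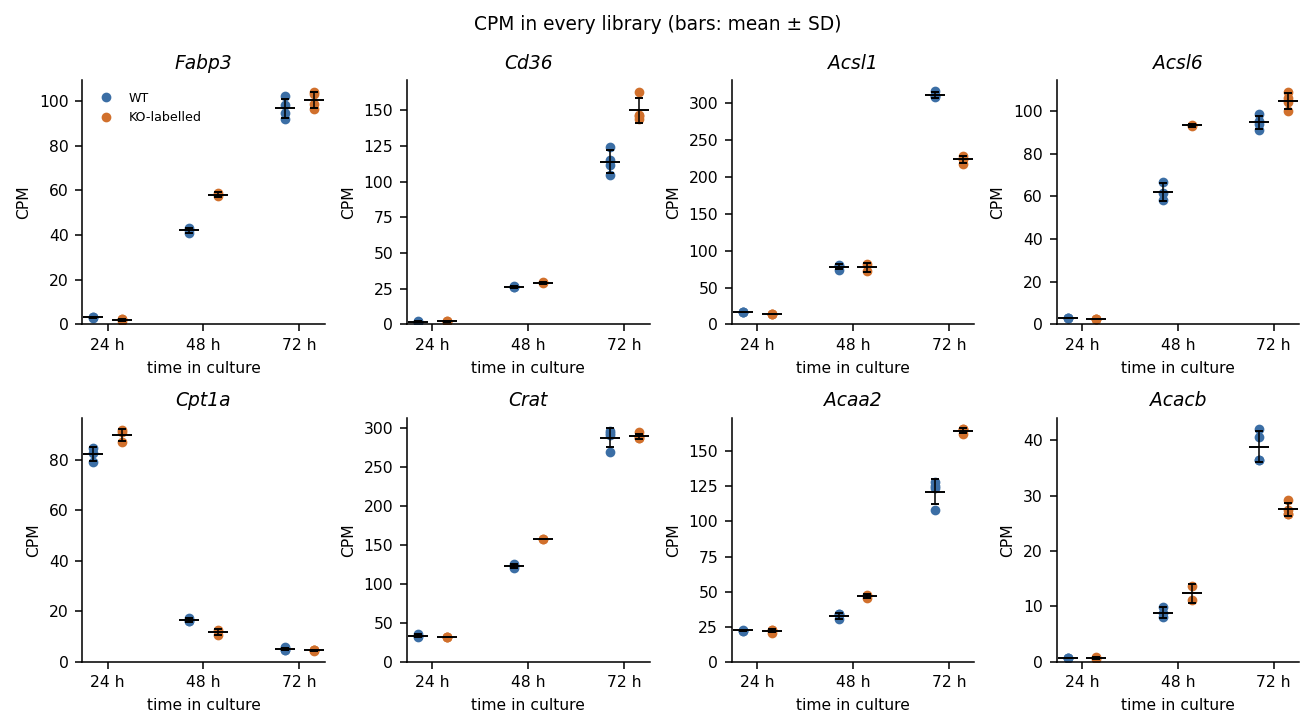
CPM of 8 members in every library at 24 h, 48 h and 72 h (points; blue WT, orange KO-labelled), with the mean ± SD of each group in black. Acsl1 and Acacb are lower and Cd36 and Acaa2 are higher in the KO-labelled libraries at 72 h, and Fabp3, Acsl6 and Crat are higher at 48 h.

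By role, the counts called between labels stand beside 11.6%, 25.2% and 13% of all genes at the 3 stages, and roles hold too few genes for a difference between them to be read. Of the 9 spiral genes 0, 2 and 2 were called at the 3 stages, namely Hadhb and Acaa2 at 48 h and Echs1 and Acaa2 at 72 h (22.2% each time), and of the 3 electron-transfer genes 0 at every stage. At 72 h the 5 shuttle genes ranged from -0.20 to 0.035 on the log2 scale and none was called. Hadha had 344, 353, 355 and 342 CPM in WT and 336, 339, 352 and 324 in KO-labelled fused myotubes, which overlap. Uptake and activation genes held 3, 4 and 4 of the 5, 12 and 7 calls.

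The effect of the genotype label itself differed between stages for some members, as tested by interaction terms in the same fit. Between 24 h and 48 h it rose in 7 members and fell in 4, against 7.78% and 11.3% of all genes; between 48 h and 72 h it rose in 3 and fell in 5, against 8.27% and 6.53%; between 24 h and 72 h it rose in 4 and fell in 2, against 5.75% and 4.55% (10.3% in either direction). Fabp3 had the firmest change of the first kind, from lower to higher under the KO label (log2 1.14 ± 0.14 SE, adjusted p = 6.57e-07). Acaca (-0.58 ± 0.073), Cpt1a (-0.63 ± 0.09) and Crat (0.43 ± 0.067) followed, with adjusted p of 1.55e-06, 1.06e-05 and 3.12e-05; Crat was not called with the effective-length offset (adjusted p = 0.476). From 48 h to 72 h Acacb turned from higher to lower (log2 -0.96 ± 0.13 SE, adjusted p = 4.96e-06), and Acsl1 from near equal to lower (-0.46 ± 0.058, adjusted p = 3.02e-06). In that interval the effect fell for Acsl6 (-0.44 ± 0.063) and for Crat (-0.35 ± 0.057), whose mean at 72 h was 288 CPM in WT and 289 in KO-labelled libraries. Neither was called with the effective-length offset (adjusted p of 0.127 and 0.0895). Over the whole course Acaa2 (0.46 ± 0.078 SE, adjusted p = 0.000246) and Fabp3 (0.74 ± 0.13 SE, adjusted p = 0.00034) were called in every alternative, whereas Acsl4, Acsl1, Lpl and Cpt1a were each lost in at least 8 of 23. The balance of directions depends on the scaling. Between 24 h and 48 h, 40.7% of all genes called were higher, but 26.3% with library totals alone, 50.8% with DESeq2's size factors and 53.2% with length and GC trends removed; the members then split 5 to 4, 7 to 4 and 8 to 4. Between 48 h and 72 h the share was 55.9%, but 75% with library totals alone (members 6 to 5) and 43.9% with length and GC trends removed (4 to 7). Between 24 h and 72 h it was 55.8%, but 65.9% with DESeq2's size factors (members 5 to 0) and 66.9% with the effective-length offset (3 to 0).

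A wider list of 94 related genes (peroxisomal oxidation, lipid droplets, other transporters and synthetases, coactivators and AMPK subunits), had 85 genes tested, of which 59 rose and 20 fell over the WT course, beside 42.2% and 43.4% of all genes. Between labels 2 were higher and 8 lower in myoblasts, 10 higher and 13 lower at 48 h, and 9 higher and 6 lower at 72 h, totals of 10, 23 and 15 of 85 genes where 11.6%, 25.2% and 13% of all genes were called. In KO-labelled myoblasts Vldlr, the very low density lipoprotein receptor, had 11 ± 0.258 CPM against 18.1 ± 1.64 (SD, n = 3 each), Acsbg1, a very long chain synthetase, 11 ± 0.88 against 16.7 ± 0.856, and Acss2, the cytosolic acetyl-CoA synthetase, 2.47 ± 0.358 against 3.38 ± 0.47. At 48 h Fabp5 had 3.07 ± 0.106 CPM (SD, n = 2) against 8.66 ± 1.13 (n = 3), a fall of 1.48 ± 0.13 SE on the log2 scale (adjusted p = 3.25e-09), where Fabp3 of the same family was higher. Cpt1c, a form found mainly in brain, and Cav1, a caveolar coat protein, were lower as well, with 2.36 ± 0.146 against 5.32 ± 0.556 CPM and 3.15 ± 0.456 against 6.27 ± 0.877 (adjusted p of 2.50e-07 and 5.75e-06). At 72 h Lpin1, a phosphatidate phosphatase, had 9.17 ± 0.686 against 4.28 ± 2.06 CPM (SD, n = 4 each; adjusted p = 0.0403). Lipe, the hormone-sensitive lipase, was higher by 0.52 and Esrrb, an orphan receptor of the oestrogen-related family, lower, at -0.50 (adjusted p of 0.0159 and 1.08e-05).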

How the data were processed

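Per the labels' protocols, RNA of cultured primary mouse myoblasts was sequenced from Illumina TruSeq mRNA libraries; samples were grouped by their titles. Per the submitters' processing notes, bcl2fastq 2.20, fastp 0.20.0, kallisto 0.46.1, edgeR 3.36 and build GRCm38.p6 were used; their settings are not given in the sources used here. The authors deposited, per the file headers, an estimated count and a TPM value for each of 121843 transcripts, with a length and an effective length. Transcripts were assigned to genes with GENCODE M21 (121018 matched; the rest held 0.255% to 0.507% of the counts), and estimated counts were summed per gene and rounded. Deposited TPM was likewise summed per gene, and serves where levels of different genes are compared. A read that matches several transcripts is shared between them, and whether strand was used is not stated, so overlapping genes are named as uncertain. 

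Tests used edgeR 4.0.16 under R 4.3.3, with 1 fit over all 19 libraries with a coefficient per group, filterByExpr, TMM scaling, quasi-likelihood tests, and Benjamini-Hochberg adjustment over 15123 genes, with calls at an adjusted p under 0.05. Errors of fold changes are standard errors of the fit. No replicate pair was a copy of another (chi-square per degree of freedom 2.14 to 7.66). On simulated data with 50 changed genes per fold size, the fit recovered 31, 30 and 31 of the 1.25-fold changes and 49, 46 and 47 of the 2-fold changes at 24 h, 48 h and 72 h, and called 11, 14 and 12 of 14923 unchanged genes. The simulated counts used the spread estimated by the same fit. Far fewer genes were changed than the 1747 to 3810 called between labels, so recovery in the data may differ. Changed genes were drawn above a floor on expected counts, which leaves out genes as scarce as Ucp3 and Ppara before 72 h. Interval limits for low counts are exact at 95% and cover counting error only. Library totals of 16168131 to 30742634 set the precision of low genes.

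Values per library are given for up to 6 called members of smallest adjusted p at each stage between labels, and for the 3 largest rises and falls of each WT stage comparison; up to 4 members are named per interaction, and 3 other pathway genes per stage by size of change with a mean of at least 1 CPM. Further members are named to complete each role. The members and the gene lists were chosen with earlier results of these data known. Alternatives were DESeq2 1.42.0, DESeq2 size factors, library totals, other filters, the compared groups alone, a replicate block, an effective-length offset, removal of length and GC trends, and leaving out each library. Promoter windows were read from RefSeq.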

Additional observations from a re-analysis of the deposited data

Results flagged for a closer look

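A library stood apart from the other 3 of its group in 2 of 74 groups of 4 libraries checked, where chance gives about 5%. Acads had 152 CPM in KO-labelled fused replicate 1 and 144 to 145 in the others, and Ppard had 31.8 CPM in KO-labelled fused replicate 4 and 28.5 to 28.8 in the others. Neither gene was called between labels at 72 h. The rule looks at each gene alone and does not flag a library that is low across several genes. WT fused replicate 4 was the lowest of its group in Acaa2 (108 CPM against 124 to 128) and Acads (136 against 153 to 158). The same held for Acadvl (188 against 205 to 211) and Crat (269 against 291 to 296). Other members went the other way, such as Cd36 (124 against 105 to 115) and Acadl (329 against 325 to 326).

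The effect of the genotype label differed between stages, by the interaction test of edgeR, in 25 cases over 3 pairs of stages. From 24 h to 48 h the log2 change of the effect was 1.14 for Fabp3, 0.85 for Lpl, 0.79 for Acsl6, 0.52 for Acaa2, 0.43 for Crat, 0.24 for Acsl1 and 0.22 for Acadvl. It was -0.68 for Slc27a1, -0.63 for Cpt1a, -0.58 for Acaca and -0.29 for Acsl5. From 48 h to 72 h it was 0.48 for Acaca, 0.34 for Decr1 and 0.33 for Acsl5, and -0.96 for Acacb, -0.46 for Acsl1, -0.44 for Acsl6, -0.40 for Fabp3 and -0.35 for Crat. From 24 h to 72 h it was 0.74 for Fabp3, 0.70 for Lpl, 0.46 for Acaa2 and 0.21 for Acsl4, and -0.33 for Cpt1a and -0.22 for Acsl1. Adjusted p ran from 6.57e-07 to 0.0453. Of the first 11, Acadvl was lost in 7, Acsl1 in 5, Acsl5 in 3, and Crat and Slc27a1 in 1 of 20 alternatives. Of the next 8, Acsl5 was lost in 10, Decr1 in 3, and Acsl6 and Crat in 1 of 22; without WT replicate 1 of 48 h Decr1 was at 0.21 (adjusted p = 0.0558). Of the last 6, Cpt1a was lost in 15, Acsl1 in 14, Lpl in 10 and Acsl4 in 8 of 23. The 3 pairs share libraries, so a gene that appears under several of them is not shown independently.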

How the results depend on the processing

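Of the called members, 3 of 5, 6 of 12 and 6 of 7 kept the call in every alternative between labels at 24 h, 48 h and 72 h, as did 27 of 35, 33 of 34 and 34 of 35 in the WT stage comparisons, 29 of 35, 31 of 34 and 35 of 36 in the KO-labelled ones, and 6 of 11, 4 of 8 and 2 of 6 for the interactions. The count of members called in myoblasts was 8 with only the groups compared, 8 with length and GC trends removed and 3 with the effective-length offset, in place of 5. The offset also gave 5 in place of 8 for the interaction from 48 h to 72 h and 3 in place of 6 for that from 24 h to 72 h. Without 1 library, the 24 h to 72 h interaction counted 2 to 6 members: 2 without KO-labelled myoblast replicate 3, and 3 without WT myoblast replicate 1 or 3, KO-labelled myoblast replicate 1, or KO-labelled fused replicate 2, 3 or 4. The other counts kept within 1.5 times of their value; between labels they ran from 4 to 4, 8 to 15 and 6 to 8. Leaving out 1 of the 2 KO-labelled libraries of 48 h leaves a lone sample that is assumed to vary like the other groups.

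Directions turned in a few members. With library totals alone, the WT change from 24 h to 48 h was -0.24 for Ppard, -0.029 for Eci1, -0.12 for Etfdh and -0.022 for Hadh, and the KO-labelled one -0.042 for Ppard and -0.15 for Etfdh and Hadh; from 24 h to 72 h Echs1 was at -0.30 (WT) and -0.10 (KO-labelled). With length and GC trends removed, Acsl4 and Acsl3 rose by 0.31 and 0.15 from 48 h to 72 h in WT. With the effective-length offset, Acaca was at 0.40 from 48 h to 72 h in KO-labelled libraries and at 0.42 in the 24 h to 72 h interaction, and Acsl5 at -0.12 in the 48 h to 72 h interaction. The cause was not tested. DESeq2's test left the counts between labels at 4, 13 and 7 members.

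Same-numbered libraries showed no strong pairing: 0 of 41 same-numbered pairs correlated above 0.1 (-0.0536 to 0.0563). Such low values cannot exclude a weak pairing. Between WT libraries of 24 h and 48 h the same-numbered values (0.0392, 0.0247 and 0.036) lay above the best differently numbered ones (-0.0207, -0.0107 and -0.00458). Between WT and KO-labelled myoblasts they lay below (0.014, -0.0506 and -0.0148 against 0.026, 0.0524 and 0.0259). With the replicate block the members called between labels were 4, 12 and 7, in place of 5, 12 and 7. Genes such as Ucp3, Ppara, Lpl and Fabp3 in myoblasts rest on few counts, which limits how firmly a difference between labels can be stated there.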
